A study of Homo sapiens with 32 samples.

Results

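The 10 members described here, genes of the NF-κB pathway, were followed in HGrC1 cells exposed to perfluorooctane sulfonate (PFOS). The members were taken by gene symbol from the deposited table and are the subunit genes NFKB1, NFKB2, RELA and RELB, the inhibitor and feedback genes NFKBIA, NFKBIZ and TNFAIP3, and the survival and adhesion genes BIRC3, ICAM1 and TRAF1. They are 10 of the 47137 gene entries of the table, of which 18583 held values, and all 10 passed the filter on low counts in every comparison. HGrC1 is a single immortalized line of non-luteinized human granulosa cells, the hormone-producing cells that surround the oocyte. The study compared 32 libraries of polyadenylated RNA in 8 groups of 4. The groups were a vehicle control (0.05% DMSO) and 3 concentrations of PFOS, namely 0.01 µM, 0.1 µM and 1 µM, each collected after 6 weeks and after 12 weeks, with PFOS added again at every passage. All groups, controls included, were exposed in medium with 10% fetal bovine serum and a sex steroid, which the sample labels name as estradiol and the study's methods as testosterone. Replicates 1 to 4 were 4 vials of the line thawed into separate flasks, each of which was then divided among the 4 exposures, so replicates stand for cultures of 1 line and not for donors.

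NF-κB is a family of dimeric transcription factors held in the cytoplasm by inhibitory IκB proteins. Signals from cytokine and pattern-recognition receptors activate IκB kinases, the inhibitor is degraded, and the dimers enter the nucleus and bind κB sites. Many of the genes they induce encode their own inhibitors, so that the pathway shuts itself off, while others encode survival proteins and adhesion molecules. In the ovary, inflammatory signalling of this kind accompanies ovulation, and granulosa cells respond to interleukins and tumour necrosis factor. Protein abundance and nuclear entry of the subunits were not measured here, and the values below are transcript levels only.

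The promoter sequences show which members carry the letters of a κB site next to their start. RefSeq promoters of GRCh38.p14, covering 250 bases before and 50 bases after the start site, were found for 9 of the 10 members (not for RELB). They were searched on both strands for the κB consensus, a motif of 10 letters. A match was present in 5 of the 9 members, against 1562 of 27303 promoters (5.72%) in the whole table. The 5 promoters with a match are shown in the gene's direction, with the matching letters in capitals.
NFKB1, chr4:102501285-102501344, plus strand: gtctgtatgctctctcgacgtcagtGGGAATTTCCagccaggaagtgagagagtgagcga
NFKBIA, chr14:35404796-35404855, minus strand: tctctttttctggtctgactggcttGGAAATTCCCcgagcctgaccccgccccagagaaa
NFKBIZ, chr3:101827742-101827801, plus strand: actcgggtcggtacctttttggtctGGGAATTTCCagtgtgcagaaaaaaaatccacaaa
TNFAIP3, chr6:137867167-137867238, plus strand: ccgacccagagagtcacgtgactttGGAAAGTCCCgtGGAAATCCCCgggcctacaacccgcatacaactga
BIRC3, chr11:102317260-102317383, plus strand: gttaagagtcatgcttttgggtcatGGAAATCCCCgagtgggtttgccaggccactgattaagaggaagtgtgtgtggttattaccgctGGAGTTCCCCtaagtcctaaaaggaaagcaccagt
The matches of NFKB1 and NFKBIZ read on the gene's own strand and have identical letters, although NFKB1 and NFKBIZ moved in opposite directions over time (below). Those of NFKBIA, TNFAIP3 and BIRC3 read on the other strand, and TNFAIP3 and BIRC3 share one of their motifs. Read on that other strand, the NFKBIA match has the same letters as those of NFKB1 and NFKBIZ. TNFAIP3 and BIRC3 each held 2 matches that did not overlap. The first base of the match lay at -49 from the start site in NFKB1, -81 in NFKBIA, -223 in NFKBIZ, -67 and -55 in TNFAIP3, and -199 and -135 in BIRC3. The start site used for TNFAIP3 lies inside the annotated span of the gene. No match was found in the windows of NFKB2, RELA, ICAM1 and TRAF1, which says only that these letters are not in those windows. A match describes the sequence and does not show that a factor binds there.

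In the RefSeq annotation of GRCh38.p14, counts being made per gene, the plus strand holds NFKB1 at chr4:102501359-102617302, NFKB2 at chr10:102394110-102402529, RELB at chr19:45001464-45038192 and ICAM1 at chr19:10271120-10286615. NFKBIZ is at chr3:101827990-101861022, TNFAIP3 at chr6:137866349-137883312 and BIRC3 at chr11:102317484-102339403 of the same strand. RELA (chr11:65653601-65663857), NFKBIA (chr14:35401513-35404749) and TRAF1 (chr9:120902393-120929171) are on the minus strand.

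Library totals ranged from 17907057 to 18553350 expected counts, and the 48 pairs of replicates held no identical libraries. Replicates differed most at 0.01 µM and 12 weeks. A chi-squared per degree of freedom, a measure of their difference, reached 16.2 there and at most 9.81 in the other groups. The lowest mitochondrial share of counts (3.54%) was in the same group. Of the granulosa cell markers, GATA4 (111 to 156 CPM, counts scaled to a common library size), WT1 (55.3 to 79.1), NR2F2 (158 to 204) and CDH2 (231 to 332) were present in every library. AMH (10.5 to 17.5 CPM) and INHBA (6.70 to 22.7) were also present in every library, at lower levels. FOXL2 reached at most 2.03 CPM, INHA 1.71, NR5A1 0.775, AMHR2 0.168 and CYP19A1, the aromatase gene, 0.0546, and FSHR was not analysed here. Of the leukocyte markers, PTPRC (at most 0.436 CPM), CSF1R, AIF1 and CD3E were at or near 0 and LYZ reached 1.80, while CD68 was at 13.6 to 27.8, CD14 at 1.82 to 10.5 and ITGAM at 1.59 to 3.46 CPM. Of 5 endothelial markers, PECAM1 (at most 1.37 CPM), VWF (0.895) and CDH5 (0.830) were low, while KDR was at 2.49 to 11.8 and TEK at 2.21 to 5.98 CPM. The 6 listed liver transcripts were AFP, ALB, AHSG, APOB, AMBP and GPC3. Their summed CPM was 50.2 in replicate 3 of the 12-week control against 3.92 to 9.61 in the other libraries of 12 weeks. That sum also differed between groups at 6 weeks, at no more than 0.0552 in the controls and at 0.01 µM and from 4.87 to 7.87 at 0.1 and 1 µM.

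Per length, NFKBIA was the most abundant member transcript. Its level in TPM, which scales counts by transcript length and library total, had a median of 172 over the 32 libraries (140 to 224). ICAM1, the adhesion molecule that leukocyte integrins bind, followed at a median of 131 TPM (91.0 to 152). RELA, the transactivating subunit of the classical dimer, had a median of 68.0 TPM (56.5 to 75.2), and NFKB2, the precursor of p52, 55.5 TPM (48.1 to 63.1). These 4 genes kept their order in every library.

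NFKB1, RELB and TNFAIP3 had levels too close to be ordered. NFKB1, the precursor of p50, had a median of 32.2 TPM (27.1 to 38.2), RELB, the partner of p52, 31.6 (26.3 to 36.0), and TNFAIP3, the ubiquitin-editing enzyme A20, 30.1 (14.9 to 43.2). NFKB1 exceeded RELB in 23 of 32 libraries, and RELB exceeded TNFAIP3 in 16. NFKBIZ, a nuclear IκB protein, lay below them at 20.1 TPM (11.3 to 31.5), BIRC3, an inhibitor of apoptosis, at 10.6 (8.41 to 12.0), and TRAF1, a receptor adaptor, at 5.40 (3.70 to 7.26). TRAF1 was also the least counted member, with 192.1 to 359.54 expected counts per library, so its relative counting error was the largest. That error leaves out the spread between cultures. Unless TPM is named, levels between libraries are given from here on as CPM on library sizes scaled by the trimmed mean of M-values.

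**Figure D1:**
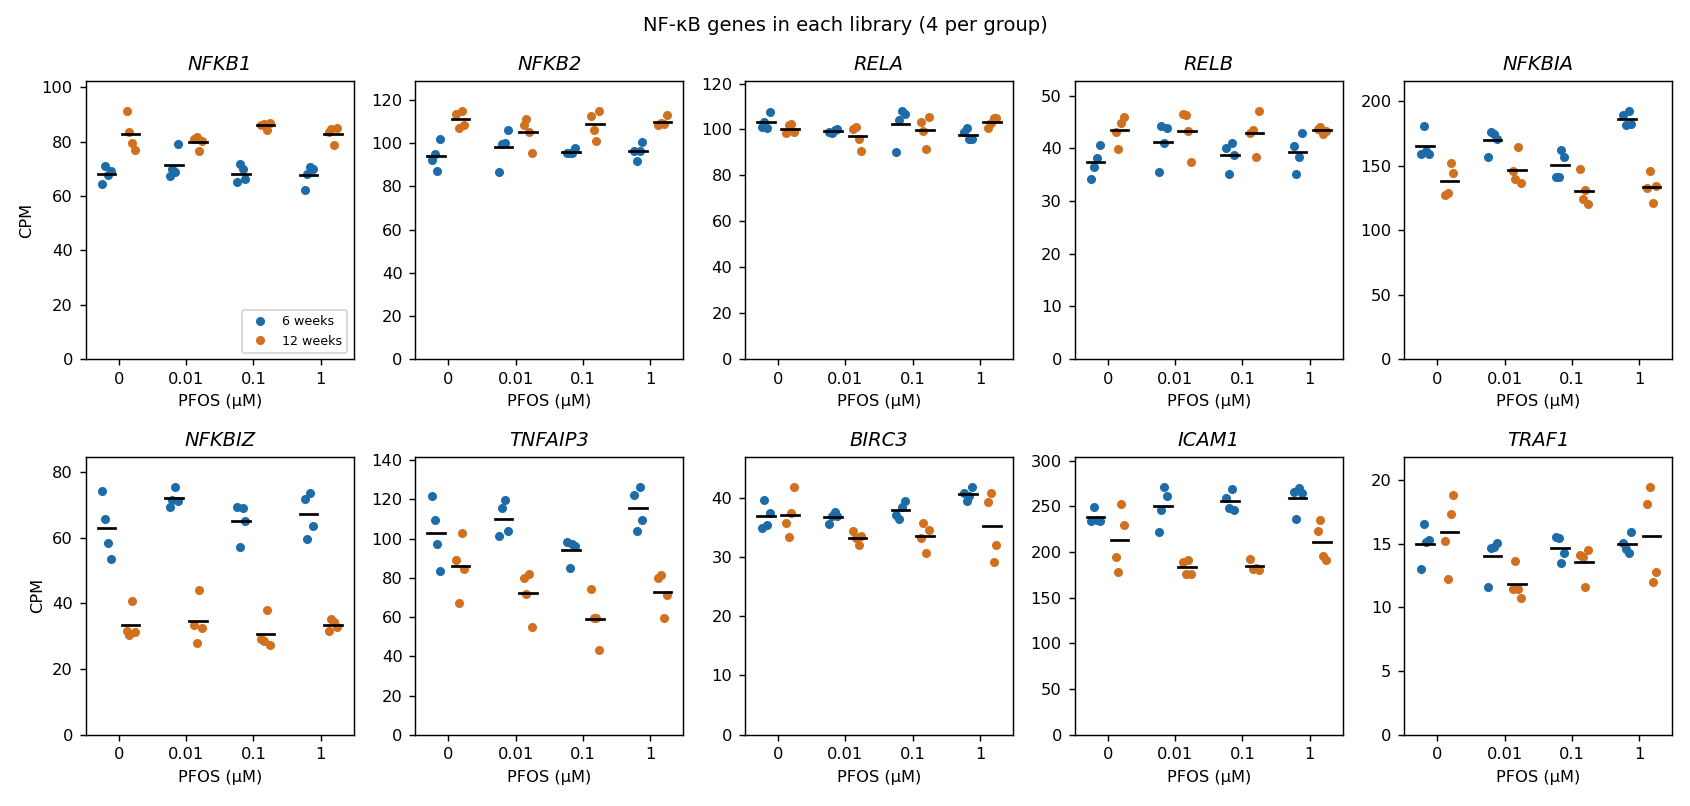
CPM of the 10 members in the 32 libraries (y axis, 1 panel per gene) by PFOS concentration in µM (x axis), with 6 weeks in blue and 12 weeks in orange; points are libraries and bars are means of 4. NFKBIZ at 12 weeks lies below all 6-week libraries and NFKB1 mostly above them, while within a time the PFOS groups lie among the controls for most genes.

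The first question was whether PFOS changed the members at either time. No member passed the test at any concentration when set against its time-matched vehicle control. Over the 60 pairs of member and comparison, edgeR's quasi-likelihood test with Benjamini-Hochberg adjustment over all genes called 0 at an adjusted p of 0.05, with 8 pairs at an unadjusted p under 0.05, and DESeq2 called 1. The smallest adjusted p was 0.101. At 6 weeks the test called 0.0% of all 12836 genes at 0.01 µM, 4.24% at 0.1 µM and 0.28% at 1 µM. At 12 weeks it called 0.0%, 1.07% and 0.22% of 12742 genes at these concentrations. All 60 intervals of 95% lay within a 2-fold change and 56 within a 1.5-fold change, the extremes being -0.93 and 0.39 on the log2 scale. The 3 comparisons of a time share their 4 control libraries.

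**Figure D2:**
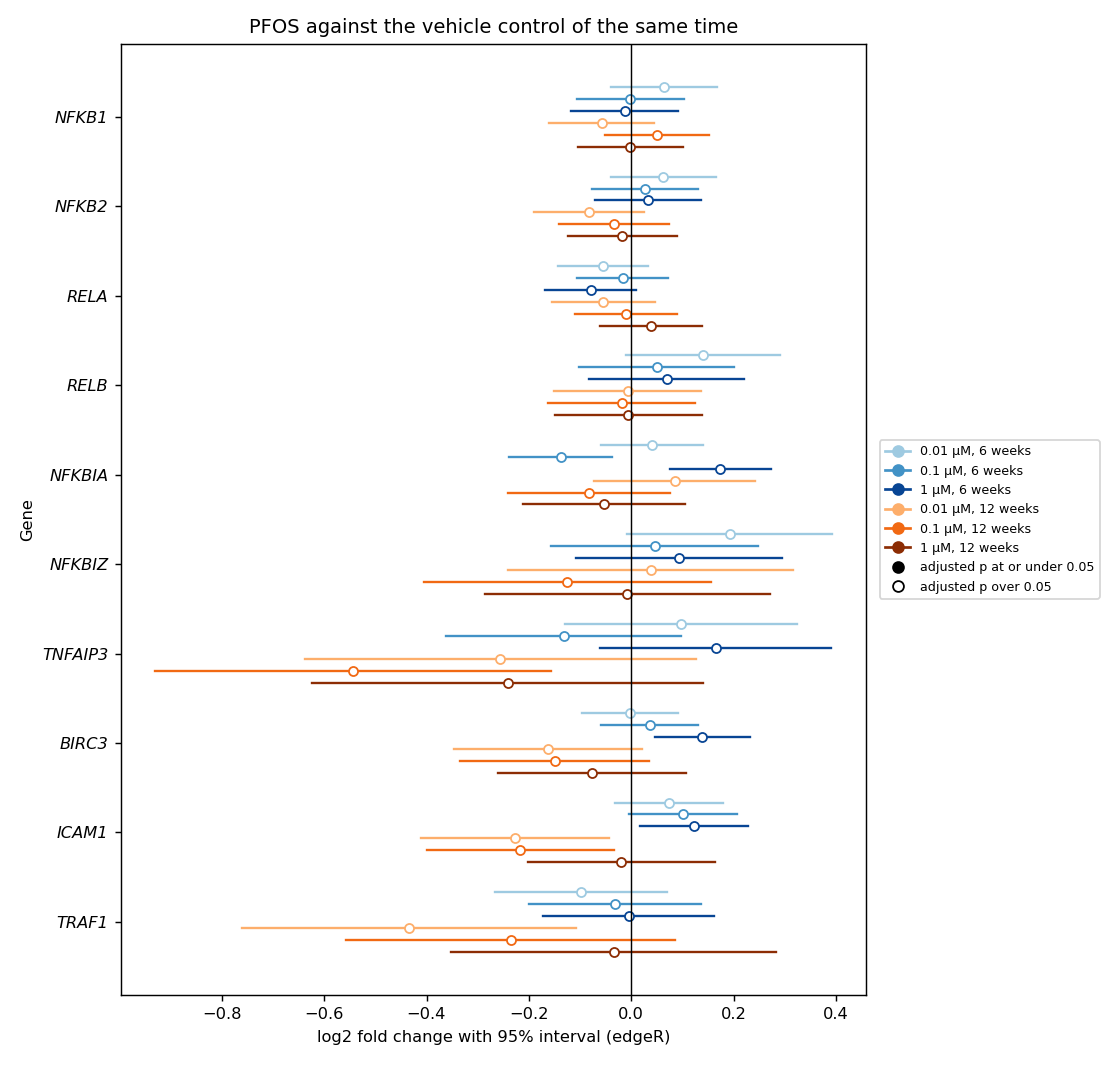
Log2 fold change of each member in PFOS against its time-matched control (x axis) with its 95% interval, for 3 concentrations and both times; open points did not pass an adjusted p of 0.05. All 60 points are open, and the widest intervals belong to TNFAIP3 and TRAF1 at 12 weeks.

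Among the subunits at 6 weeks, the PFOS groups lay among the controls for NFKB1, NFKB2 and RELB. NFKB1 had 64.5, 71.1, 67.8 and 69.3 CPM in the controls and 62.1, 67.9, 70.6 and 69.8 at 1 µM, a log2 difference of -0.01 (95% interval -0.12 to 0.09). RELA was the exception in its ranks. Its controls had 101.2, 103.4, 100.7 and 107.7 CPM, and all 4 libraries at 0.01 µM (99.1, 98.4, 99.7 and 100.2) and at 1 µM (98.8, 100.5, 95.9 and 95.9) lay below the lowest control. The differences were -0.06 (SE 0.04, adjusted p = 0.713) and -0.08 (SE 0.04, adjusted p = 0.424) on the log2 scale in edgeR, and at 0.1 µM the RELA groups overlapped. In CPM, 1.85% of all genes at 0.01 µM and 3.61% at 1 µM lay below the controls without overlap. In TPM, RELA still did so at 1 µM (62.24 to 67.05 against 69.22 to 75.17). At 0.01 µM it did not, since its highest library had 69.43 TPM.

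Among the inhibitors at 6 weeks, NFKBIA, which encodes the inhibitor IκBα, gave its lowest group at 0.1 µM and its highest at 1 µM. The controls had 159, 180, 161 and 159 CPM. The 0.1 µM libraries had 141, 141, 162 and 156 CPM, and the 1 µM libraries 189, 181, 192 and 182. In CPM the 1 µM libraries all exceeded the controls, the nearest pair being 181.2 against 180.4, whereas 0.1 µM overlapped them. In TPM this was reversed. There the 1 µM libraries (206 to 224) overlapped the controls (192 to 215), and those at 0.1 µM (167 to 191) lay below every control. The exact permutation test gave p = 0.0857 at 1 µM and 0.0286 at 0.1 µM in TPM, against 0.0286 and 0.143 in CPM. Against the control, the log2 differences were -0.14 (SE 0.05, adjusted p = 0.101) at 0.1 µM and 0.17 (SE 0.05, adjusted p = 0.119) at 1 µM in edgeR, with unadjusted p of 0.00904 and 0.00138. DESeq2 called the latter (0.18, adjusted p = 0.0310). The edgeR test also called it when replicate 2, whose control was the highest, was left out of all groups (0.23, adjusted p = 0.0228). In that run the calls over all genes rose from 36 to 178. Of all genes, 3.24% were above the controls without overlap at 1 µM in CPM. The mitochondrial share of counts was 4.80% to 5.04% in these controls, below all libraries at 0.1 µM (5.52% to 6.71%) and 1 µM (5.56% to 6.77%), and its part in the NFKBIA differences was not tested.

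The direct comparison of 1 with 0.1 µM at 6 weeks called 1 member, NFKBIA, among 11 of 12836 genes (0.0857%). NFKBIA was 1.24-fold higher at 1 µM (186 ± 5.31 against 150 ± 10.7 CPM, mean ± SD, n = 4 each), a log2 difference of 0.31 (SE 0.05, 95% interval 0.21 to 0.41, edgeR adjusted p = 0.00496). Every 1 µM library exceeded every 0.1 µM library, and the exact two-sided permutation test gave p = 0.0286, the smallest that 4 against 4 allows. The call was lost without replicate 3 (adjusted p = 0.0558) and when all 32 libraries shared the estimate of spread (0.175). TNFAIP3 also separated completely in this comparison, with 98.3, 84.8, 97.3 and 96.2 CPM at 0.1 µM and 122, 104, 127 and 109 at 1 µM. Its difference of 0.30 (SE 0.10) did not pass (edgeR adjusted p = 0.677), and 2.1% of all genes were higher at 1 µM without overlap. The summed immediate early genes, which respond to handling and serum, ranged from 4156 to 4774 CPM at 0.1 µM and from 3723 to 4360 at 1 µM, while the mitochondrial shares given above overlapped. Their part in the NFKBIA difference was not tested.

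At 12 weeks the difference in NFKBIA between 1 and 0.1 µM was 0.03 (95% interval -0.13 to 0.19). In that comparison edgeR called 0 members and 0.0% of all genes, with 1 member at an unadjusted p under 0.05 (ICAM1, 0.20, adjusted p = 0.629), and DESeq2 called 0 members.

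Among the survival and adhesion genes at 6 weeks, the 1 µM groups of BIRC3 and ICAM1 were centred above the controls and overlapped them. BIRC3 had 34.9, 39.6, 35.3 and 37.4 CPM in the controls and 40.7, 39.3, 40.3 and 41.9 at 1 µM, a log2 difference of 0.14 (SE 0.05, edgeR adjusted p = 0.167). For ICAM1 the difference at 1 µM was 0.12 (SE 0.05, adjusted p = 0.297), at 259 ± 15.2 against 238 ± 7.60 CPM. TRAF1 differed most at 0.01 µM, by -0.10 (95% interval -0.27 to 0.07, adjusted p = 0.735).

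At 12 weeks the largest difference from the control was that of TNFAIP3 at 0.1 µM. The controls had 89.3, 67.3, 103 and 84.6 CPM and the 0.1 µM libraries 74.1, 59.7, 59.5 and 43.1. Only the highest 0.1 µM library lay above the lowest control. The log2 difference was -0.54 (SE 0.18, 95% interval -0.93 to -0.16, edgeR adjusted p = 0.187), and it passed only where all 32 libraries were fitted together (adjusted p = 0.0405). The summed immediate early genes ranged from 3866 to 5333 CPM at 0.1 µM and from 5279 to 6601 in the controls at 12 weeks, and their part in the TNFAIP3 difference was not tested.

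ICAM1 and TRAF1 at 12 weeks varied most within the control and 1 µM groups. ICAM1 had 195, 178, 253 and 230 CPM in the controls, 189, 176, 191 and 176 at 0.01 µM, 193, 181, 183 and 181 at 0.1 µM, and 224, 235, 196 and 192 at 1 µM. The 0.01 and 0.1 µM libraries were close together and overlapped the lower controls. Their differences from the control were -0.23 at 0.01 µM (SE 0.09, edgeR adjusted p = 0.565) and -0.22 at 0.1 µM (SE 0.09, adjusted p = 0.250). TRAF1 differed by -0.43 (SE 0.15, adjusted p = 0.565) at 0.01 µM, where it had 11.5, 13.7, 11.4 and 10.7 CPM against 15.2, 12.3, 17.3 and 18.8 in the controls. None of the members separated from the controls without overlap in CPM at 12 weeks. Of all genes, 2.81%, 8.33% and 6.61% did so at the 3 concentrations in either direction. In TPM, RELA at 1 µM (68.57 to 72.7 against 64.88 to 67.38) and BIRC3 at 0.01 µM (8.75 to 9.62 against 9.71 to 11.99) did separate. The exact permutation test in TPM gave p = 0.0286 for each, and edgeR called neither. The share of all genes was counted in CPM only. The median log2 difference of the 10 members from the control was 0.06, 0.01 and 0.08 at 6 weeks and -0.07, -0.10 and -0.02 at 12 weeks in the order of concentration, while that of all genes stayed within 0.01 of 0.

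**Figure D3:**
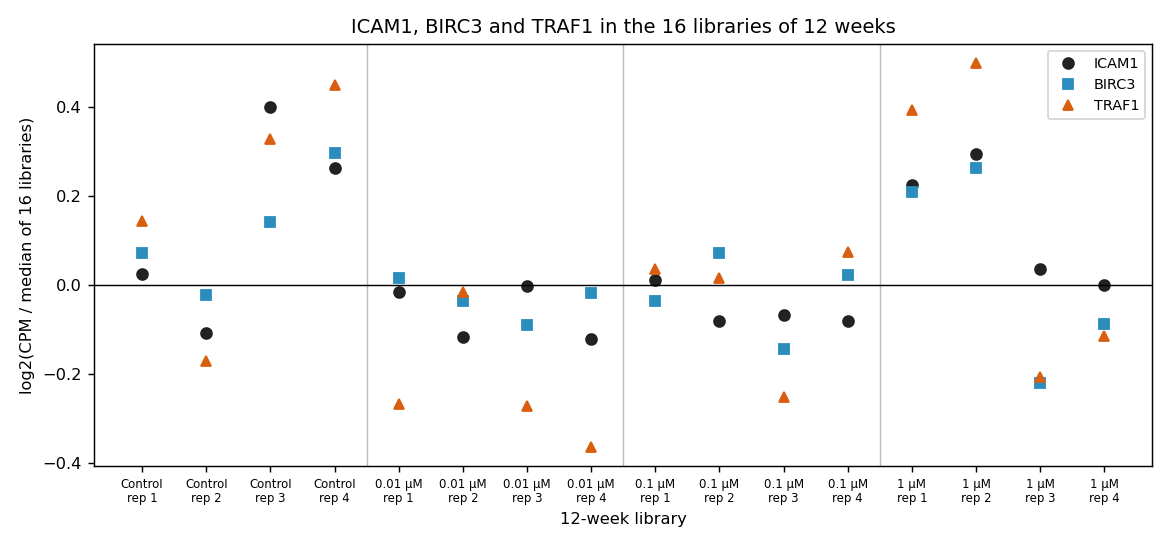
ICAM1, BIRC3 and TRAF1 in the 16 libraries of 12 weeks, as log2 of CPM over the median of the 16 (y axis), by library (x axis). Replicates 3 and 4 of the control and replicates 1 and 2 of 1 µM PFOS are the 4 highest for each gene.

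The same 4 libraries held the highest values of all 3 survival and adhesion genes at 12 weeks, which was noticed after the values were seen and was not tested. They were replicates 3 and 4 of the control and replicates 1 and 2 of 1 µM PFOS. ICAM1 had 224 to 253 CPM in these 4 libraries and 176 to 196 in the other 12. BIRC3 had 37.5 to 41.7 and 29.1 to 35.7 CPM, and TRAF1 17.3 to 19.5 and 10.7 to 15.2. Of all 12742 genes, 389 (3.05%) were likewise higher in all 4 than in each of the 12, and 332 were lower. Among 74 other pathway genes, 6 (8.11%) were higher. They were the complement gene C3 (195 to 258 against 109 to 145 CPM), the chemokine CXCL8 (9.04 to 14.6 against 3.97 to 8.26), the coagulation factor receptor F3 (61.9 to 69.9 against 40.6 to 56.9), the cytokine IL32, the receptor TLR4 and the death receptor TNFRSF10B. Same-numbered control and 1 µM libraries deviated in opposite ways at 12 weeks, with a correlation over 12613 genes of -0.163 on average, while the averages of the other pairs of groups lay between 0.026 and 0.156. The 12-week mean of these genes in the control and at 1 µM therefore averages libraries from both sides of that gap.

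The second comparison was of 12 with 6 weeks within each exposure. The largest member difference was -1.08 on the log2 scale, against -0.54 in the comparisons with PFOS. At 12 weeks NFKBIZ was about 2-fold lower in all 4 exposures, NFKBIA was lower in all 4, and NFKB1 was higher in all 4. The test called 5 members in the control (3 higher, 2 lower), 5 at 0.01 µM (1 higher, 4 lower), 7 at 0.1 µM and 7 at 1 µM (2 higher and 5 lower in each). Of all 12988 genes, it called 36.6%, 42.7%, 40.3% and 30.1%, so that a call in itself was common. Time in culture, passage number and date of harvest cannot be told apart in this design, and neither can fewer cells of a state and less RNA per cell.

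**Figure D4:**
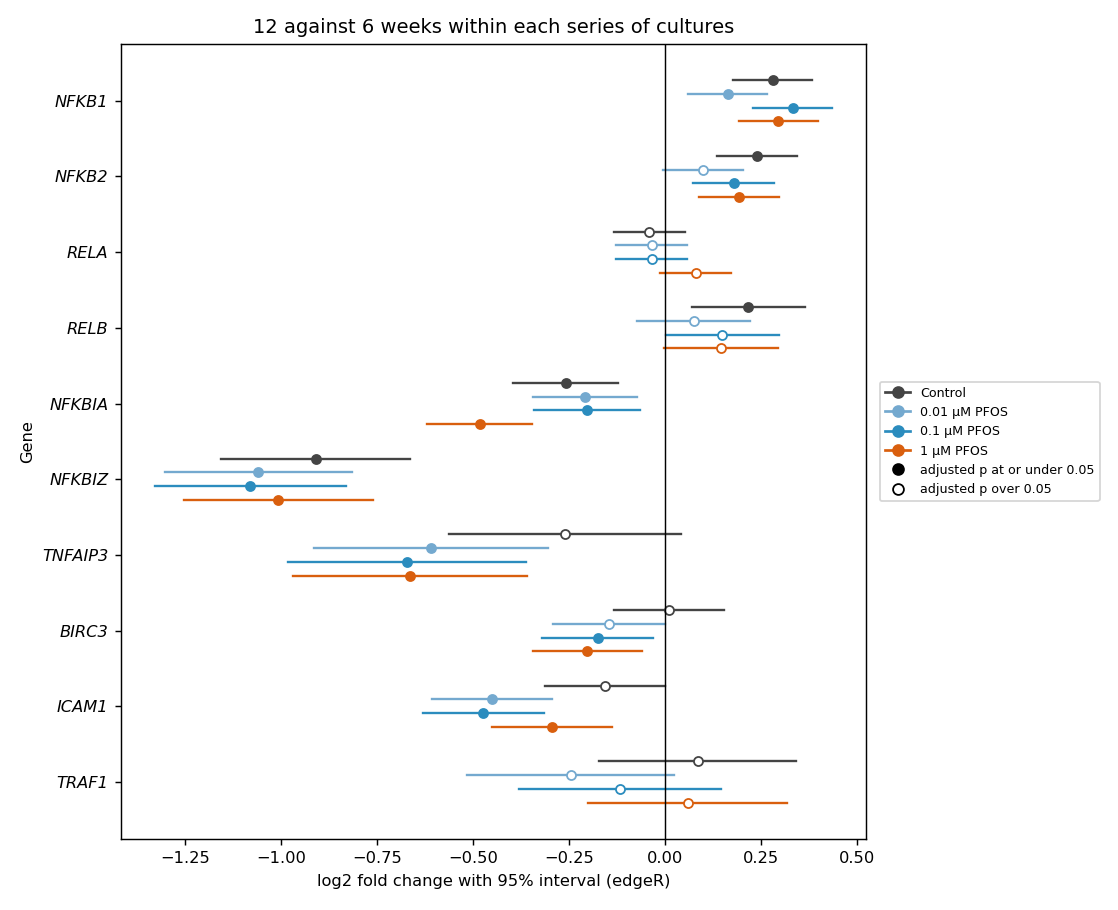
Log2 fold change of each member at 12 against 6 weeks (x axis) with its 95% interval, within the control and each PFOS concentration; filled points passed an adjusted p of 0.05. NFKBIZ lies near -1 in all 4 exposures, NFKB1 is above 0 in all 4, and RELA and TRAF1 have open points only.

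Of the subunits, NFKB1 rose in every exposure. In the controls it went from 64.5, 71.1, 67.8 and 69.3 CPM at 6 weeks to 91.3, 83.6, 79.3 and 77.1 at 12 weeks, with no overlap. It was higher at 12 weeks in 16 of 16 pairs of libraries with the same exposure and replicate number. The log2 differences were 0.28 in the control (adjusted p = 4.44e-05), 0.16 at 0.01 µM (0.00908), 0.33 at 0.1 µM (2.8e-06) and 0.30 at 1 µM (3.08e-05), each with an SE of 0.05. At 0.01 µM NFKB1 no longer passed once replicate 2 was left out (0.0737). NFKB2 rose in the control (0.24, SE 0.05, adjusted p = 0.00041), at 0.1 µM (0.18, adjusted p = 0.00578) and at 1 µM (0.19, adjusted p = 0.00447, or 0.0525 without replicate 2). At 0.01 µM NFKB2 had a difference of 0.10 (adjusted p = 0.119), and without replicate 4, its lowest library of 12 weeks, it passed (adjusted p = 0.00696).

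The subunits that pair with these precursors passed in fewer exposures, and no test compared the size of the change between genes. RELB, the partner of p52, passed in the control alone (0.22, SE 0.07, adjusted p = 0.0183), and that call was lost without replicate 1 (0.093) or replicate 3 (0.0777). In the 3 PFOS groups the RELB differences were 0.08, 0.15 and 0.15, and whether they differed from the control is given by the interaction below. RELA differed by -0.04, -0.03, -0.03 and 0.08 in the control and with rising concentration, with no call. It was higher at 12 weeks in 8 of these 16 pairs, among them 4 of 4 at 1 µM, where the 12-week libraries (100.7 to 105.2 CPM) lay above all those of 6 weeks (95.9 to 100.5, edgeR adjusted p = 0.184, exact permutation p = 0.0286).

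NFKBIZ fell furthest. It went from 74.2, 65.6, 58.5 and 53.7 CPM in the 6-week controls to 31.7, 30.3, 40.8 and 31.3 at 12 weeks. At 1 µM PFOS it went from 71.9, 59.6, 73.6 and 63.7 to 31.6, 35.2, 34.2 and 32.7. The 6-week and 12-week libraries were separated by a gap in every exposure, and NFKBIZ was lower at 12 weeks in 16 of these 16 pairs. The fold was 1.88 in the control (log2 -0.91, SE 0.12, adjusted p = 1.59e-06), 2.08 at 0.01 µM (-1.06, SE 0.12, 1.01e-07), 2.11 at 0.1 µM (-1.08, SE 0.12, 9.96e-08) and 2.01 at 1 µM (-1.01, SE 0.12, 4.69e-07). A call with at least 2-fold change was made for 3.32%, 3.49%, 3.83% and 3.09% of all genes, and NFKBIZ met it in the 3 PFOS groups. This 2-fold limit was close. With a replicate left out, the log2 difference ranged from -1.17 to -0.97 at 0.01 µM, -1.17 to -1.03 at 0.1 µM, -1.09 to -0.95 at 1 µM and -1.05 to -0.79 in the control. Of all genes, 16.6%, 17.4%, 20.1% and 16.1% lay lower at 12 weeks without overlap and 14.8%, 15.8%, 19.5% and 14.3% higher. Each exact two-sided permutation test of NFKBIZ gave p = 0.0286, the smallest possible. Its adjusted p stayed under 0.05 in every alternative run, whatever the fold.

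NFKBIA also fell in every exposure, by 0.26 in the control (adjusted p = 0.00301), 0.21 at 0.01 µM (0.0125), 0.20 at 0.1 µM (0.0166) and 0.48 at 1 µM (1.64e-06) on the log2 scale, with SE of 0.07. The largest fall followed the highest 6-week group, from 189, 181, 192 and 182 CPM to 132, 146, 121 and 134. Calls of NFKBIA were lost without 1 replicate in the control (without replicate 2, adjusted p = 0.076), at 0.01 µM (without replicate 2, 0.0885, or 4, 0.125) and at 0.1 µM (without replicate 3, 0.0687, or 4, 0.197), and held at 1 µM. TNFAIP3 fell in the 3 PFOS groups by 0.61 (adjusted p = 0.00179), 0.67 (0.000941) and 0.66 (0.00132), with SE of 0.15, and the 2 times did not overlap there. In the control it had 122, 110, 97.1 and 83.7 CPM at 6 weeks and 89.3, 67.3, 103 and 84.6 at 12 weeks, which overlapped (-0.26, SE 0.15, 95% interval -0.56 to 0.04, adjusted p = 0.172).

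ICAM1 fell in the 3 PFOS groups. The log2 differences were -0.45 at 0.01 µM (SE 0.08, adjusted p = 2.38e-05), -0.47 at 0.1 µM (SE 0.08, 1.34e-05) and -0.29 at 1 µM (SE 0.08, 0.00406, or 0.0861 without replicate 4). In the control the difference was -0.16 (SE 0.08, adjusted p = 0.112). Without the 12-week control of replicate 3, the library with the high sum of liver transcripts, it was -0.25 and passed (adjusted p = 0.00783). BIRC3 differed by 0.01 in the control (adjusted p = 0.927). At 0.01 µM it had 35.5, 37.0, 37.6 and 36.9 CPM at 6 weeks and 34.3, 33.1, 31.9 and 33.5 at 12 weeks, without overlap. That difference of -0.15 (SE 0.07) did not pass (adjusted p = 0.101), but passed when its own groups were fitted alone (0.0420). BIRC3 fell at 0.1 µM (-0.18, SE 0.07, adjusted p = 0.0477) and at 1 µM (-0.20, SE 0.07, adjusted p = 0.0279). Both BIRC3 calls were lost without replicate 3 (0.213 and 0.271) or replicate 4 (0.111 and 0.212), and the first also without replicate 1 (0.114). TRAF1 had differences of 0.09, -0.25, -0.12 and 0.06 and passed in none of the 4 exposures.

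Whether the change with time depended on PFOS was tested as an interaction. The test called 0 of the 10 members at 0.01, 0.1 and 1 µM, with 1, 1 and 2 members at an unadjusted p under 0.05, and DESeq2 also called 0. Of all genes, 0.0%, 0.208% and 0.123% were called, counts of 0, 27 and 16 that ranged over the alternatives from 0 to 3, 1 to 103 and 1 to 76. TNFAIP3 gave -0.35, -0.41 and -0.40 on the log2 scale (edgeR adjusted p = 0.712, 0.375 and 0.447), and ICAM1 -0.30, -0.32 and -0.14 (adjusted p = 0.609, 0.160 and 0.646). Over the 10 members the smallest edgeR adjusted p was 0.609, 0.160 and 0.358. The falls of TNFAIP3, ICAM1 and BIRC3 that passed with PFOS and not in the control were thus not shown to differ from the control. The same holds for RELB, which passed in the control alone, and for NFKBIA, whose fall was largest at 1 µM.

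The other genes of the pathway were taken from lists of 93 genes, of which 78 were tested over both times. At 12 weeks 27 were lower and 6 higher in the control, 35 and 5 at 0.01 µM, 38 and 7 at 0.1 µM, and 34 and 6 at 1 µM. Their median log2 differences were -0.09, -0.12, -0.15 and -0.11. Of all genes, 19.3%, 21.3%, 20.6% and 15.9% were lower and 17.3%, 21.4%, 19.7% and 14.2% higher. In all 4 exposures 19 of the genes fell and 3 rose, and no gene was called in opposite directions.

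**Figure D5:**
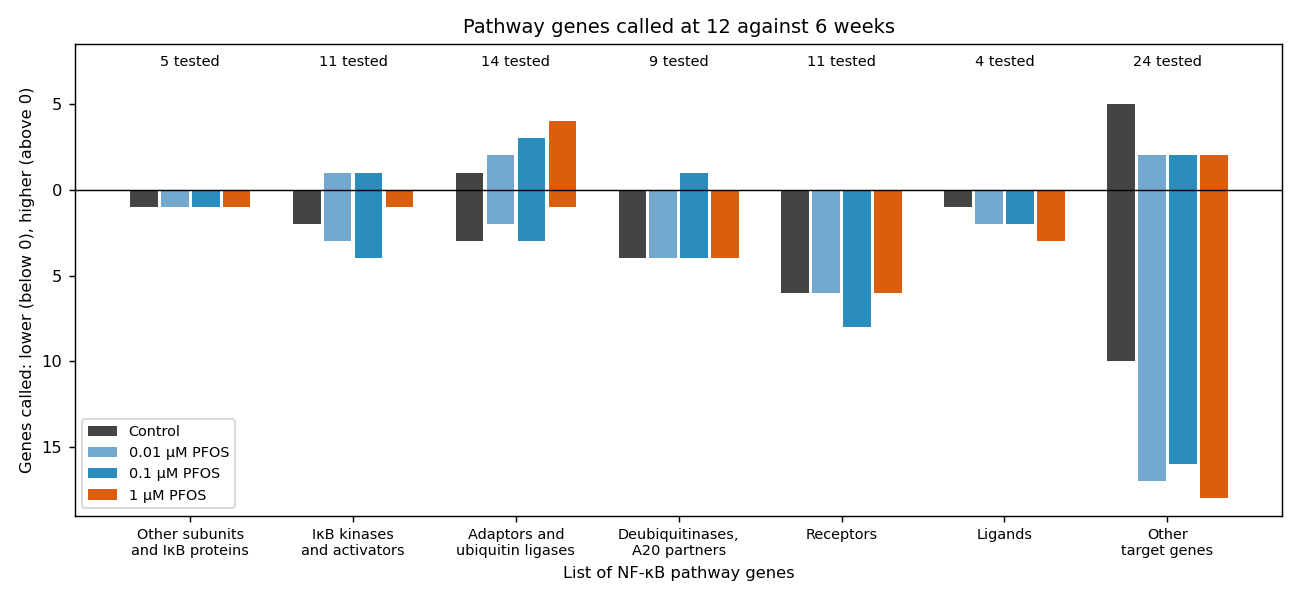
Number of genes called higher (upward) and lower (downward) at 12 against 6 weeks in each list of other NF-κB pathway genes, by exposure. Receptors and induced target genes have the most genes called lower, while adaptors and kinases are called in both directions.

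By role, most of the falls lay among receptors and induced targets. Of 11 receptors tested, 6 fell in the control, 6 at 0.01 µM, 8 at 0.1 µM and 6 at 1 µM, and none rose. TLR4, the endotoxin receptor, fell by 0.62 to 0.95 on the log2 scale over the 4 exposures, and LTBR, the lymphotoxin receptor, by 0.30 to 0.41. Of 24 target genes, 10, 17, 16 and 18 fell and 5, 2, 2 and 2 rose. IRF1, an interferon-regulatory transcription factor, fell by 0.64 to 0.99, F3, which initiates coagulation, by at least 0.87, and CXCL2, a neutrophil chemokine, by 0.73 to 1.96. GADD45B, a stress-response gene, fell by 0.42 to 0.48 and CFLAR, which blocks caspase activation, by 0.30 to 0.42. The genes that rose in all 4 exposures, named after their values were seen, were the adaptor TRAF2, the surface marker CD83 and the cytokine IL32.

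The remaining lists were mixed or small. Of 9 brakes, which are negative regulators beyond the members, 4 fell in each exposure and 1 rose at 0.1 µM, and the RNase gene ZC3H12A fell by 0.40 to 0.60. Of 11 kinase genes, 2, 3, 4 and 1 fell and 0, 1, 1 and 0 rose, and of 14 adaptor genes 3, 2, 3 and 1 fell and 1, 2, 3 and 4 rose. Of 4 ligands tested, 1, 2, 2 and 3 fell. Of 5 other subunits and IκB proteins, 1 fell in each exposure.

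The levels of other lists moved with time as well. Of 18 immediate early genes, 12, 8, 1 and 5 rose and 0, 1, 2 and 1 fell in the control and with rising concentration. The summed leukocyte markers were at 30.0 to 39.1 CPM at 6 weeks and 19.2 to 31.7 at 12 weeks, and the summed endothelial markers at 12.6 to 17.5 and 5.69 to 10.6. The leukocyte sum came mainly from CD68 (13.6 to 27.8 CPM) and CD14 (1.82 to 10.5), and the endothelial sum from KDR (2.49 to 11.8) and TEK (2.21 to 5.98), while AIF1 and CD3E were at 0 in all 32 libraries and PTPRC, PECAM1 and VWF were low. The part of these lists in the members' change was not tested.

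Some of the other pathway genes passed in the comparisons of PFOS with the control. At 6 weeks 5 of 78 did so at 0.1 µM, where 4.24% of all genes passed, and 1 at 1 µM, where 0.28% did. DESeq2, which tested 92 of these genes, called 7 and 2. ZC3H12A, which encodes an RNase that degrades inflammatory transcripts, fell at 0.1 µM from 131 ± 6.53 to 105 ± 4.98 CPM (log2 -0.33, SE 0.05, edgeR adjusted p = 0.000188) and was the gene called at 1 µM (-0.24, SE 0.04, adjusted p = 0.0103). The receptor-associated kinase IRAK1 (-0.26, adjusted p = 0.0215), IRF1 (-0.23, 0.0300) and the adaptor MYD88 (-0.14, 0.0414) were lower at 0.1 µM, and the receptor TNFRSF1A was higher (0.18, 0.0256). Leaving out replicate 1 or replicate 3 ended each of these last 4 calls, as did a fit of all 32 libraries, and so did leaving out replicate 2 for IRF1 and replicate 4 for the other three. MYD88 was also lost without the filter on low counts, with its own groups fitted alone and with DESeq2. Both calls of ZC3H12A were lost in the fit of all 32 libraries, and the one at 1 µM also without replicate 3 or 4. The mitochondrial share and the liver transcripts, both higher at 0.1 and 1 µM than in the 6-week controls as given above, moved with all of these calls, and their part was not tested.

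At 12 weeks edgeR called 2 of 74 at 0.1 µM (1.07% of all genes) and DESeq2 called 5. At 1 µM edgeR called 0 (0.22% of all genes), with 6 at an unadjusted p under 0.05, and DESeq2 called 1. IER3, an early-response survival gene, fell from 202 ± 60.4 to 115 ± 7.78 CPM (log2 -0.81, SE 0.16, adjusted p = 0.0357), and CXCL8 from 10.8 ± 3.69 to 5.10 ± 0.764 (-1.08, SE 0.24, adjusted p = 0.0412). With the vial as a replicate block the adjusted p was 0.0813 for IER3 and 0.0962 for CXCL8. Without the 12-week control of replicate 3 it was 0.0829 and 0.146. Without replicate 3 in all groups it was 0.378 and 0.495, without replicate 4 it was 0.305 and 0.241, and IER3 was also lost without replicate 2 (0.0808). Both calls were lost with their own groups fitted alone, and that of CXCL8 also without the filter on low counts. At 0.01 µM edgeR and DESeq2 called 0 of these genes at both times, with 9 at an unadjusted p under 0.05 at each time in edgeR. The interaction called 0 of 78 at 0.01 µM by either tool, with 13 at an unadjusted p under 0.05 in edgeR. It called 1 at 0.1 µM, CXCL2 (-1.23, SE 0.25, adjusted p = 0.0395), and DESeq2 called 3. At 1 µM edgeR called 0, with 14 at an unadjusted p under 0.05, and DESeq2 called 2. The call of CXCL2 was lost without replicate 2 (0.0614), 3 (0.172) or 4 (0.646). It was also lost without the filter on low counts, without the 12-week control of replicate 3, and with its own groups fitted alone.

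The members were finally set beside the genes most like them over the 32 libraries. The likeness was measured by Pearson's r of log2(CPM + 1) among 12613 genes, which share the 8 groups, the libraries and the change with time. NFKBIZ resembled CALB2 (r = 0.98), GAS7 and CFI most, ICAM1 resembled C3 (0.98), C1QTNF1 and AACS, and NFKB1 resembled L1CAM (0.93), BMP8B and RGS12. TNFAIP3 was most like B4GALT1 (0.92), C11orf96 and SNAI1, and BIRC3 most like GALNT1 (0.88), RAB27B and SLFN5. NFKB2 was most like MXRA8 (0.88), MYO18B and LSR, TRAF1 most like PLA2G4C (0.83), PXYLP1 and COLGALT2, and RELA, with the lowest values, most like EPN1 (0.72), RNF123 and PNPLA2.

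RELB and NFKBIA had another member among their nearest genes. RELB had NFKB2 as its nearest gene (r = 0.83, and 0.75 after each group was centred on its mean), before NFATC1 and SLC25A23. NFKBIA had IRF1 (0.86, centred 0.43) and then TNFAIP3 (0.85, centred 0.70), before PNRC1. Within groups BIRC3 and TRAF1 also moved together (centred r = 0.82), as did NFKBIA and ICAM1 (0.70), whereas NFKB1 and NFKBIZ, which moved in opposite directions with time (r = -0.89), had a centred r of -0.37.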

How the data were processed

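Polyadenylated RNA of 32 HGrC1 cultures was sequenced by the authors as stranded libraries. The deposited expected counts per gene were estimated by the authors with RSEM 1.2.8 on GRCh38.p14 (the submitters' processing notes also name HISAT2 2.0.4 and Bowtie2 2.2.5) and were rounded here to whole numbers. The deposited TPM values, scaled by the authors for transcript length and library total, served to compare levels between genes. Where stated, they were also set beside the CPM in comparisons of groups. The tables of FPKM and of normalized counts were not used here. Reads that RSEM divided among near-identical copies are estimates.

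Each time was fitted alone for the comparisons with PFOS (16 libraries) and all 32 libraries together for time and interactions, with edgeR 4.0.16 (robust quasi-likelihood test, TMM, filterByExpr) in R 4.3.3 with limma 3.58.1. P-values were two-sided and Benjamini-Hochberg adjusted over all genes tested (12836 at 6 weeks, 12742 at 12 weeks, 12988 over both), and a call is an adjusted p at or under 0.05. SE is the log2 fold change over the root of F. Single genes were also given the exact two-sided permutation test of log2(CPM + 1) or, where stated, of log2(TPM + 1). Its smallest p for 4 against 4 is 0.0286. Of these steps, only the edgeR fit of the comparisons with the control at 6 weeks was tested on simulated counts. Alternatives were DESeq2 1.42.0, other scaling, filters and sample sets, the vial as a block, and each replicate left out. Other steps used Python 3.11.15 with numpy 2.4.6, pandas 2.3.3, scipy 1.17.1 and matplotlib 3.10.9.

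The members and gene lists were chosen with earlier results of these data known. All members were named, and of the other pathway lists at most the 6 called genes of lowest p per comparison, except where stated. The labels give only replicate numbers. That the same number marks the same vial in every group was assumed from the study's design and is not stated in the labels. Deviations of same-numbered libraries from their group means correlated over 12613 genes at 0.053 to 0.156 on average for pairs of groups within a time, except the 12-week control with 1 µM (-0.163). Totals of 17907057 to 18553350 counts limit only low genes such as TRAF1.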

Additional observations from a re-analysis of the deposited data

Results flagged for a closer look

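In 8 of 80 groups of 4 libraries, 1 library of a member lay apart from the other 3, its gap taking a share of the group's range above Dixon's 95% critical value. Chance alone flags about 1 group in 20, and no explanation was tested. For NFKBIA, replicate 2 of the 6-week control was highest at 180.4 CPM (others 158.9 to 161.4), and the comparison of 1 µM PFOS with that control passed without this replicate. For NFKBIZ, replicate 3 of the 12-week control was highest at 40.8 CPM (30.3 to 31.7). That library also had the high sum of liver transcripts. For ICAM1, replicate 2 of the 6-week control was highest at 249.3 CPM (233.5 to 235.5), and replicate 1 at 0.1 µM and 12 weeks at 192.8 CPM (180.9 to 182.7). For TNFAIP3, replicate 2 at 0.1 µM and 6 weeks was lowest at 84.8 CPM (96.2 to 98.3), and for TRAF1, replicate 1 at 0.01 µM and 6 weeks at 11.6 CPM (14.7 to 15.0). For NFKB2, replicate 4 was highest at 0.1 µM and 6 weeks with 97.7 CPM (95.3 to 95.7) and at 1 µM and 12 weeks with 113.2 CPM (108.7 to 109.4).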

How the results depend on the processing

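The number of members called stayed within 1.5 times in 163 of 169 recalculations, and no member changed direction with a call. At 1 µM against the control at 6 weeks, 0 members became 1 with DESeq2 and 0 to 1 with a replicate left out. At 1 against 0.1 µM at 6 weeks, 1 member became 0 with all 32 libraries and 0 to 1 with a replicate left out. At 0.1 µM against the control at 12 weeks, 0 became 1 with all 32 libraries. At 12 against 6 weeks with 0.01 µM, 5 became 3 to 5 with a replicate left out. Of single values, 1663 kept their side of the threshold, 20 lost it and 7 gained it. BIRC3 at 0.1 µM over time was also lost without the filter (0.0506) and with DESeq2 (0.0591), and at 1 µM with its own groups alone (0.117), a setting in which it was gained at 0.01 µM (0.0420). The cause of these shifts was not tested.

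With the vial as a replicate block, the same number of members was called in every comparison (0 against the controls, 1 at 1 against 0.1 µM at 6 weeks, 5, 5, 7 and 7 over time). Same-numbered control and 1 µM libraries of 12 weeks deviated in opposite ways, so their pairing is uncertain.

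Counts over all genes depended more on the setting. Against the control at 6 weeks they ranged over the alternatives from 0 to 6 at 0.01 µM, 22 to 739 at 0.1 µM (544 as reported) and 5 to 178 at 1 µM (36). At 12 weeks they ranged from 0 to 3, 4 to 540 (136) and 8 to 136 (28). The interactions ranged from 0 to 3, 1 to 103 (27) and 1 to 76 (16). Over time they ranged from 3341 to 4816, 4298 to 5604, 4041 to 5597 and 2498 to 3966.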
